A study of Arabidopsis thaliana with 8 samples.

Results

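Leaves of Arabidopsis thaliana Col-0 kept without iron were compared with control leaves by RNA sequencing, with 2 libraries per group and 4 of the 8 libraries of the series in the comparison. Plants had spent 12 d on soil and a further 10 d in hydroponic culture containing 1 µM copper sulfate. For the last 10 d the iron-deficient plants were kept in that medium with FeEDTA, the iron chelate that feeds it, left out, and control plants in the complete medium. Both groups were therefore supplied with copper. The other 4 libraries came from a double deficiency (no FeEDTA, no copper sulfate and 10 µM of the copper chelator bathocuproine disulfonate) and from copper deficiency with iron supplied, and all 8 entered 1 statistical model. Rosette leaves were taken 4 h after the light came on, so the values describe 1 time of day and 1 length of treatment. The origin of the 2 libraries of each group, from separate or shared cultures, is a point not given in the sources used here, and p-values measure only the spread between these samples, which may be technical. The values are FPKM (fragments per kilobase of transcript, scaled to the mapped fragments of the library) for 38093 gene entries. Most weight is given to 19822 nuclear genes of at least 300 bp that lay above 0 FPKM in all 8 libraries, of which 17243 were expressed highly enough to be tested and 16812 of these code for protein.

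Iron is needed in leaves for the haem and iron-sulfur proteins of the photosynthetic and respiratory chains and for several steps of chlorophyll synthesis. Plants that run short of it raise a set of basic helix-loop-helix (bHLH) transcription factors, of which bHLH38, bHLH39, bHLH100 and bHLH101 form subgroup Ib and act with FIT in roots, while subgroup IVc factors and bHLH121 stand above them. BRUTUS (BTS) and its relatives are ubiquitin ligases with haemerythrin domains that restrain the response, and the small IRON MAN peptides keep it active. Iron moves through the plant bound to citrate or nicotianamine, and surplus iron is held in ferritin and in vacuoles.

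The libraries were of like depth: relative to the deepest, iron deficiency 1 and 2 stood at 0.863 and 1 and the controls at 0.807 and 0.732, read from the authors' bounds on each value, and the other 4 libraries at 0.760 to 0.938. Replicates correlated at r = 0.990 in iron deficiency and 0.986 in controls over genes on the log2 scale, with a median absolute difference of 0.177 and 0.170 log2 units. With its sign, the median of library 1 minus library 2 was -0.133 in iron deficiency and 0.0757 in controls. As a check of the labelled tissue, RBCS1A, a leaf gene for the Rubisco small subunit, stood at 11448 and 13724 FPKM in iron-deficient leaves and at 16686 and 18769 FPKM in control leaves, and the root hair gene EXPA7 was listed at 0. The make-up of the RNA differed between the groups. Nuclear messenger RNA held 69.3 and 75.4% of all FPKM in iron-deficient leaves, against 86.1 and 82.8% in control leaves, and ribosomal RNA held 5.94 and 1.66% in iron-deficient leaves, against 0.358 and 0.661% in control leaves. Nuclear genes not annotated as protein-coding, ribosomal RNA aside, held 15.3 and 15.5% in iron-deficient leaves, against 7.71 and 8.15% in control leaves. Chloroplast transcripts held 9.40 and 6.85% of the FPKM in iron-deficient leaves, against 5.83 and 8.36% in control leaves. Mitochondrial transcripts held 0.0699 and 0.553% in iron-deficient leaves, against 0.0137 and 0.0147% in control leaves. The part of this make-up in each result was not tested, but counts for the main groups of genes are also given under 3 other scalings of the same values, or as the number called under every scaling.

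Log2(FPKM + 1) was tested with limma over 19171 genes and adjusted over all of them. A gene is said to have risen or fallen where the adjusted p is under 0.05. Log2 changes are iron deficiency minus control, with their standard error, and understate the change of genes of low level. Tested genes had 1 FPKM or more in at least 2 of the 8 libraries. Genes short of that level with iron supplied were tested only through libraries without iron. In lists that hold such genes, the share called and the median change are partly set by this filter. Of the 17243 nuclear genes, 4918 (28.5%) rose and 1224 (7.1%) fell. Over all tested genes the shares were 27.2% and 6.85% (34.1% in all, and 35.6% of the nuclear genes), which serve as background for the gene lists below. The median gene moved by 0.27 log2 units, which a scaling can remove: under median-ratio scaling 2519 nuclear genes rose and 2677 fell, and under quantile scaling 2416 rose and 2585 fell. Scaled to nuclear coding FPKM, 7543 rose. Called in the same direction under all 4 scalings were 2109 rises (12.2%) and 855 falls (4.96%). The size of the nuclear counts also rested on single libraries: without control 2, 2436 genes rose and 632 fell, without iron deficiency 2, 2190 rose, and 729 fell without control 1 and 650 without iron deficiency 1. Both iron-deficient libraries lay above both controls in 54.5% of the nuclear genes and below both in 17.7%. They did so, in the direction of the call, for all 377 called genes among the lists and the largest changes described below, so wherever a rise or fall is given the groups do not overlap. The largest changes were picked only from genes whose groups do not overlap. For them this was fixed in advance, and the count is a description that adds no support to the calls. Large changes were far less dependent on scaling. Of the nuclear genes, 220 rose and 63 fell by at least 2 log2 units, and 219 of these rises and all 63 falls were called under all 4 scalings.

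The direction of change differed with how abundant a transcript was. Of the 90 nuclear genes with a mean over the 8 libraries of at least 1000 FPKM, 56 (62.2%) fell and 2 (2.22%) rose, with a median log2 change of -0.95. Of the 5467 genes between 10 and 30 FPKM, 36.8% rose and 5.73% fell. The photosystem, electron transport and carbon fixation genes listed here, 90 in all, made up 15.4 and 18.8% of nuclear coding FPKM in iron-deficient leaves, against 32.8 and 33.7% in control leaves. The 20 listed regulators of the iron response made up 0.522 and 0.540% of it in iron-deficient leaves, against 0.0296 and 0.0271% in control leaves. RNA of whole leaves was measured, so fewer cells of a type and less RNA per cell cannot be told apart in these values.

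**Figure D1:**
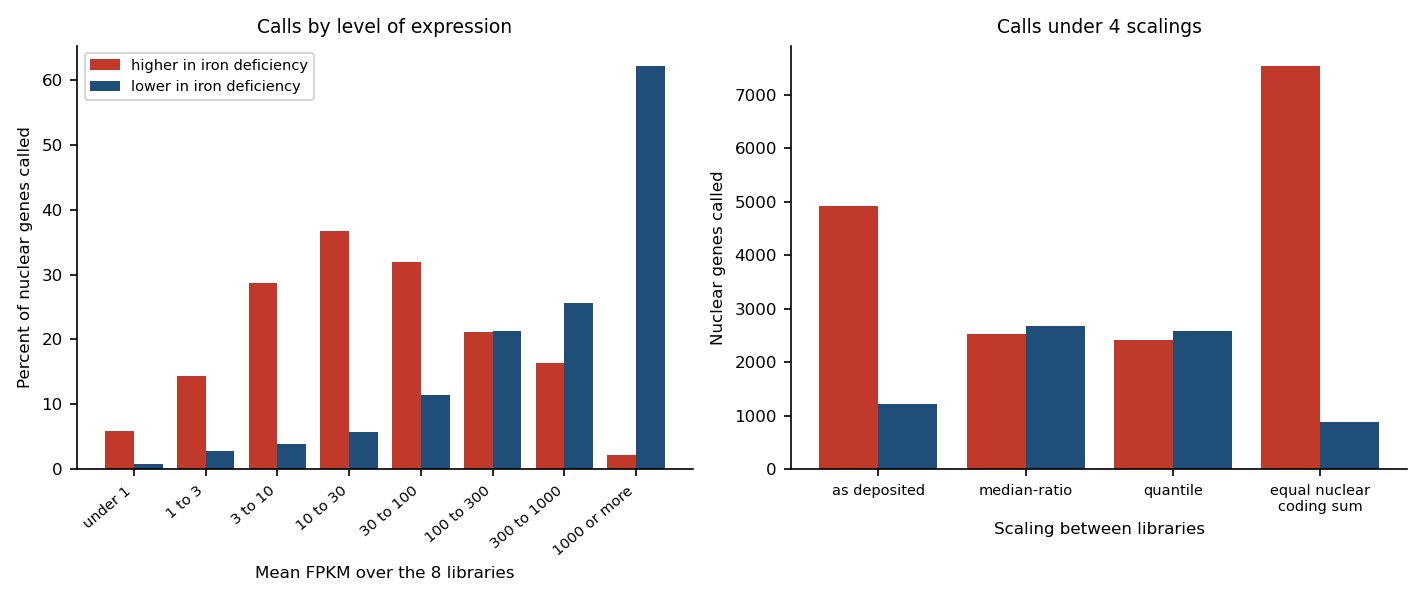
Left, the percent of tested nuclear genes that were higher or lower in iron deficiency (limma adjusted p under 0.05), by mean FPKM over the 8 libraries. Right, the number of nuclear genes called higher and lower under each of the 4 scalings. Lower calls reach 62.2% of the genes at 1000 FPKM or more, and higher calls 36.8% of those between 10 and 30 FPKM; the deposited scale gives 4918 higher and 1224 lower, median-ratio scaling 2519 and 2677.

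The transcription factors and regulators of the iron response rose together. Of 20 listed genes 16 could be tested, 13 rose and 3 were not called, with a median log2 change of 3.23, against 0.27 for all genes. The 10 that were called under every scaling also stayed called when any 1 of the 8 libraries was left out. Of the 16 tested, 13 belonged to the weighted genes above 0 FPKM in all 8 libraries. BHLH38, BHLH39, BHLH100 and AT1G74770 were under 1 FPKM in both controls, so the control libraries did not let them into the test. BHLH38, on chr3:21084035-21085245, had 626 and 678 FPKM in iron-deficient leaves, against 0 and 0.914 FPKM in control leaves (log2 change 8.88 ± 0.28, adjusted p = 1.55e-05). Its neighbour BHLH39, on chr3:21086390-21087710, had 346 and 375 FPKM in iron-deficient leaves, against 0.174 and 0.151 FPKM in control leaves (log2 change 8.28 ± 0.12, adjusted p = 7.62e-07). BHLH100, on chr2:17198037-17199454, had 631 and 638 FPKM in iron-deficient leaves, against 0.128 and 0.963 FPKM in control leaves (log2 change 8.74 ± 0.44, adjusted p = 9.37e-05). These 3 genes of subgroup Ib were at 0.963 FPKM or less in both controls and at 346 FPKM or more in both iron-deficient libraries, so the groups lay far apart. The other gene of that subgroup, BHLH101, was listed at 0 in all 4 libraries. BHLH38 and BHLH39 are close in sequence, so their separate levels depend on how reads were split between such copies.

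Of the subgroup IVc factors upstream of these, BHLH34 rose, with 12.9 and 13.0 FPKM in iron-deficient leaves, against 8.20 and 6.64 FPKM in control leaves (log2 change 0.73 ± 0.12, adjusted p = 0.00645). BHLH104 and BHLH115 rose by less (0.48 ± 0.14, adjusted p = 0.0400) and (0.41 ± 0.11, adjusted p = 0.0280), as did BHLH121 (0.46 ± 0.12, adjusted p = 0.0265). These 3 were not called under every scaling, and each lost its call without single libraries: without iron deficiency 2 the adjusted p was 0.178 for BHLH104, 0.0634 for BHLH115 and 0.125 for BHLH121, and without control 1 it was 0.148, 0.110 and 0.113. ILR3 (bHLH105), the most abundant of the subgroup, had 84.6 and 88.0 FPKM in iron-deficient leaves, against 91.1 and 92.2 FPKM in control leaves and was not called (log2 change -0.09 ± 0.07, adjusted p = 0.392). PYE, a bHLH factor that represses iron transport genes, had 42.3 and 52.4 FPKM in iron-deficient leaves, against 8.93 and 5.45 FPKM in control leaves (log2 change 2.59 ± 0.37, adjusted p = 0.00409). FIT, which controls iron uptake in roots, stood at 1.39 and 1.92 FPKM in iron-deficient leaves, against 1.64 and 1.29 FPKM in control leaves, with overlapping groups and no call (log2 change 0.11 ± 0.20, adjusted p = 0.724). BHLH121 and the subgroup IVc factors thus differed from control by 0.73 log2 units or less where subgroup Ib differed by 8.28 to 8.88.

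The ubiquitin ligase BTS had 316 and 316 FPKM in iron-deficient leaves, against 25.6 and 16.7 FPKM in control leaves (log2 change 3.87 ± 0.38, adjusted p = 0.00116). Its relative AT1G74770, annotated as a zinc ion binding protein, stood at 20.2 and 22.8 FPKM in iron-deficient leaves and was listed at 0 in both control libraries. Another relative, AT1G18910, stood at 1.99 and 2.84 FPKM in iron-deficient leaves, against 1.5 and 1.86 FPKM in control leaves and was not called (log2 change 0.34 ± 0.21, adjusted p = 0.250). The 3 genes for IRON MAN peptides, annotated as uncharacterized proteins, also separated the groups. AT1G47395 had 799.5 and 843 FPKM in iron-deficient leaves, against 1.24 and 1.05 FPKM in control leaves (log2 change 8.59 ± 0.31, adjusted p = 2.47e-05). AT1G47400, its neighbour on chr1:17385707-17386485, had 594 and 634 FPKM in iron-deficient leaves, against 3.8 and 1.45 FPKM in control leaves (log2 change 7.48 ± 0.68, adjusted p = 9.04e-04). AT2G30766 had 467 and 525 FPKM in iron-deficient leaves, against 33.5 and 21.2 FPKM in control leaves (log2 change 4.16 ± 0.65, adjusted p = 0.00530). Of the 3, AT2G30766 was the one with a clear level in controls, so its log2 change was the smallest although its level without iron was close to that of AT1G47400. MYB10 was listed at 0 in all 4 libraries, and MYB72 and BHLH11 stayed under 1 FPKM in them.

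**Figure D2:**
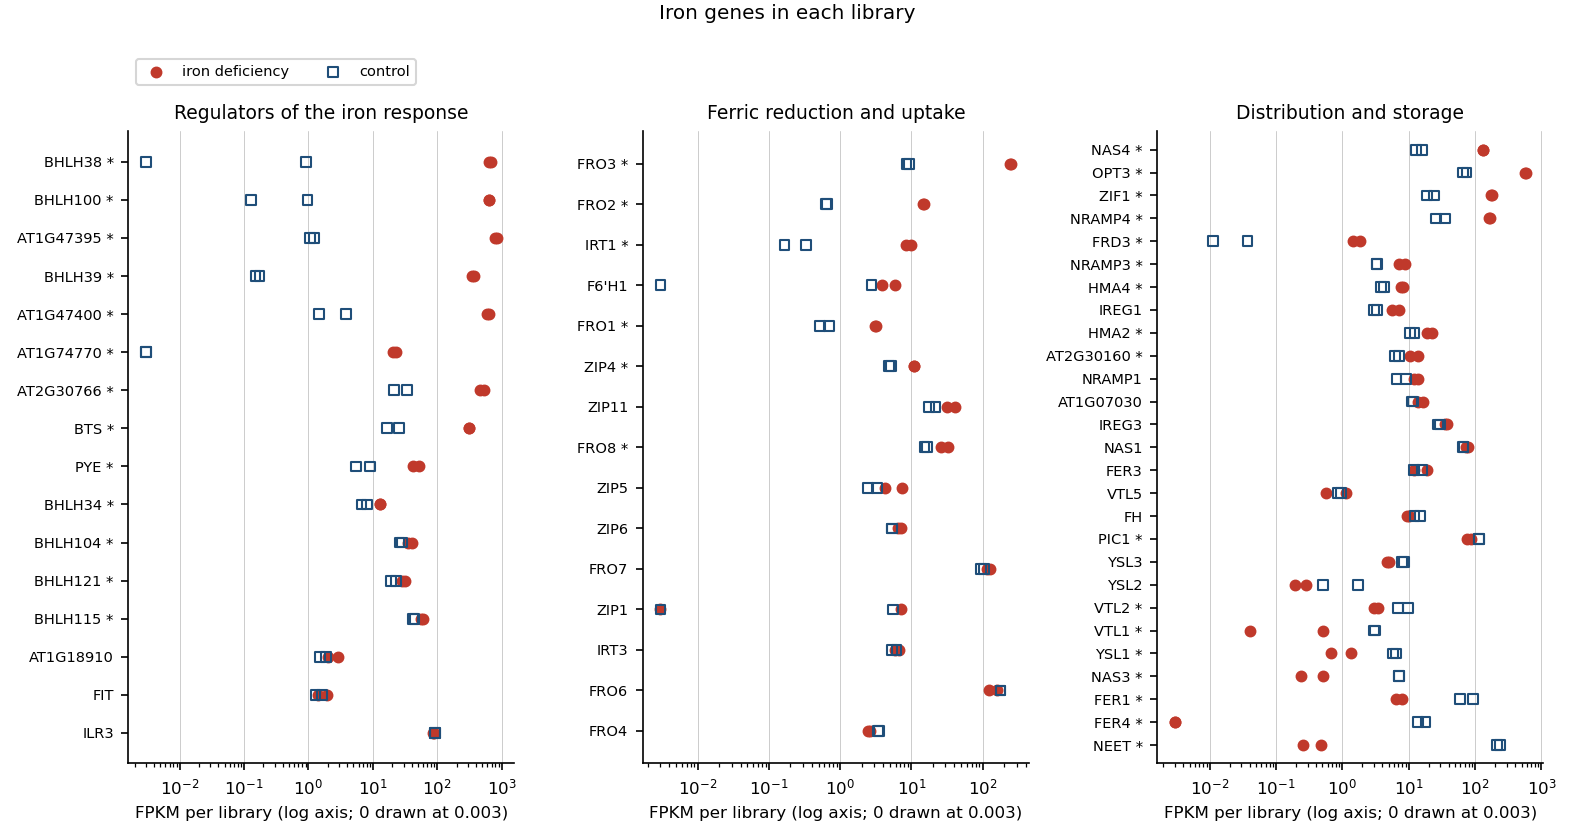
FPKM on a log axis of the listed iron genes in each library, in 3 panels: regulators, reduction and uptake, and distribution and storage. Dots are iron-deficient libraries and squares control libraries, values of 0 are drawn at 0.003 FPKM, and an asterisk marks an adjusted p under 0.05. BHLH38, BHLH39, BHLH100 and AT1G47395 lie at 346 FPKM or more in iron deficiency and at 1.24 FPKM or less in controls, while NEET, FER1 and FER4 lie the other way.

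Subgroup IVc bHLH factors are known to bind E-box elements, of which the G-box, CACGTG, is one form. The G-box was searched on both strands in the 250 bases before the start of each gene (RefSeq, TAIR10.1). It occurred in 4 of the 20 listed regulators and 4 of the 35 listed distribution and storage genes, and in 6.49% of 27443 nuclear coding genes. The share among the listed genes is a description and draws on few genes. The 150 bases before the start of BHLH38 (chr3:21085246-21085395 on the minus strand), BHLH100 (chr2:17199455-17199604 on the minus strand), BTS (chr3:6273816-6273965 on the plus strand) and OPT3 (chr4:9250344-9250493 on the minus strand) are given, 5′ to 3′ in the direction of the gene. These 4 are examples that both rose under every scaling and hold the G-box, so its presence in all 4 is not a result. Capitals mark the G-box.
BHLH38: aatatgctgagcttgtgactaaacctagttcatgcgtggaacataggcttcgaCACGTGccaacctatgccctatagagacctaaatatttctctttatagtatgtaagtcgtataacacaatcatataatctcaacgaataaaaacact
BHLH100: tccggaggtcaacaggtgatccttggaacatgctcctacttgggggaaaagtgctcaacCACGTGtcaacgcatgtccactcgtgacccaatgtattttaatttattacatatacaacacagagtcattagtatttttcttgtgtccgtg
BTS: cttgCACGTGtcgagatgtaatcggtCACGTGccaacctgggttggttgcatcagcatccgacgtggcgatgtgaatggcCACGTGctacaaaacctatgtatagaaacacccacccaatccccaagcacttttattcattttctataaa
OPT3: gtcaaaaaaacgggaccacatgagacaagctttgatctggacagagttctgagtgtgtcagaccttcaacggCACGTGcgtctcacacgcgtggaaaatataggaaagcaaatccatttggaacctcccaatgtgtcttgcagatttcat
The G-box began 97 bases before the start in BHLH38, 91 in BHLH100 and 78 in OPT3. BTS held 3, at 146, 124 and 70 bases before the start. Genes that did not rise held it as well: it began 69 bases before the start in FER4, which was at 0 in iron-deficient leaves, 76 in FER3, which was not called, and 60 in BHLH11, which stayed under 1 FPKM. A match of letters does not show that a factor binds there, and BHLH39, which rose as far, held none in this window.

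Genes for iron reduction and uptake are best known from roots. Of 23 listed, 15 could be tested and 6 rose, all 6 under every scaling, with 9 not called. FRO1, FRO2 and IRT1 were under 1 FPKM in both controls, so the control libraries did not let them into the test. FRO3, a ferric reductase of mitochondria, had 244 and 253 FPKM in iron-deficient leaves, against 9.18 and 8.57 FPKM in control leaves (log2 change 4.66 ± 0.30, adjusted p = 2.49e-04). FRO2 and IRT1, the reductase and importer of root iron uptake, rose where control levels were very low: FRO2 had 14.7 and 15.2 FPKM in iron-deficient leaves, against 0.626 and 0.654 FPKM in control leaves (log2 change 3.28 ± 0.17, adjusted p = 1.13e-04) and IRT1 9.89 and 8.53 FPKM in iron-deficient leaves, against 0.330 and 0.165 FPKM in control leaves (log2 change 3.03 ± 0.24, adjusted p = 5.21e-04). FRO1 had 3.07 and 3.19 FPKM in iron-deficient leaves, against 0.521 and 0.693 FPKM in control leaves (log2 change 1.36 ± 0.23, adjusted p = 0.00648). The zinc transporter gene ZIP4 had 11 and 10.8 FPKM in iron-deficient leaves, against 4.85 and 5.16 FPKM in control leaves (log2 change 0.98 ± 0.14, adjusted p = 0.00445). FRO8 rose too (0.85 ± 0.16, adjusted p = 0.00943), but was not called without iron deficiency 2 (adjusted p = 0.0518) or without control 2 (0.0540). The 2 reductase genes with the highest levels in control leaves did not pass the test: FRO7, which reduces iron at the chloroplast, had 114 and 129 FPKM in iron-deficient leaves, against 95.0 and 103 FPKM in control leaves (log2 change 0.28 ± 0.11, adjusted p = 0.0928), and FRO6 had 122 and 162 FPKM in iron-deficient leaves, against 178 and 179 FPKM in control leaves (log2 change -0.34 ± 0.14, adjusted p = 0.107).

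Most root marker genes were too low to be tested. Of 8 listed root markers 3 could be tested, and 2 rose and 1 fell. Over all tested genes 27.2% rose and 6.85% fell. The part of root material in the changes of FRO2 and IRT1 was not tested. EXPA7, a root hair gene, was listed at 0 in all 4 libraries, and EXPA18 and LRX1 stayed at 0.164 FPKM or less. SCR, which marks the endodermis and is also active in leaves, rose (0.89 ± 0.11, adjusted p = 0.00290), as did SHR (0.75 ± 0.17, adjusted p = 0.0170), whereas the peroxidase gene AT4G11290 fell (-1.40 ± 0.35, adjusted p = 0.0253). The summed level of the 8 markers was 24.0 and 25.1 FPKM in iron-deficient leaves, against 21.1 and 27.8 FPKM in control leaves. The calls of SHR and AT4G11290 rested on single libraries, with adjusted p of 0.0858 without iron deficiency 2 for SHR and 0.115 without control 2 for AT4G11290.

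Genes for moving iron within the plant and for storing it split in direction. Of 35 listed, 27 could be tested, 9 rose and 8 fell, and 7 of the rises and all 8 falls were called under every scaling. Among genes that load or mobilise iron, OPT3, a phloem transporter of iron and copper, had 561 and 581 FPKM in iron-deficient leaves, against 74.1 and 65.4 FPKM in control leaves (log2 change 3.02 ± 0.23, adjusted p = 4.53e-04). NAS4, a nicotianamine synthase, had 130.4 and 133 FPKM in iron-deficient leaves, against 13.0 and 15.8 FPKM in control leaves (log2 change 3.11 ± 0.21, adjusted p = 2.81e-04). ZIF1, which moves nicotianamine into the vacuole, had 176 and 183 FPKM in iron-deficient leaves, against 24.1 and 18.7 FPKM in control leaves (log2 change 3.02 ± 0.25, adjusted p = 7.00e-04). In each of these the 2 iron-deficient libraries agreed closely and lay far above both controls. NRAMP4, which exports iron from the vacuole, had 160.0 and 168 FPKM in iron-deficient leaves, against 35.1 and 25.9 FPKM in control leaves (log2 change 2.4 ± 0.15, adjusted p = 2.13e-04). Its partner NRAMP3 rose by less, with 7.14 and 8.94 FPKM in iron-deficient leaves, against 3.26 and 3.37 FPKM in control leaves (log2 change 1.06 ± 0.15, adjusted p = 0.00364). The citrate transporter gene FRD3 was at the floor in controls, with 1.84 and 1.43 FPKM in iron-deficient leaves, against 0.0112 and 0.0373 FPKM in control leaves (log2 change 1.36 ± 0.22, adjusted p = 0.00627). The zinc exporter gene HMA2 rose (0.79 ± 0.13, adjusted p = 0.00723). HMA4 and the mitochondrial carrier gene AT2G30160 rose (0.82 ± 0.20, adjusted p = 0.0219) and (0.76 ± 0.20, adjusted p = 0.0303), but not under every scaling, and without iron deficiency 2 the adjusted p was 0.103 and 0.146.

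The falls took in ferritin genes and members of the vacuolar iron transporter family, and also genes of other roles. FER1, the main leaf ferritin, had 6.36 and 7.87 FPKM in iron-deficient leaves, against 92.4 and 59.3 FPKM in control leaves (log2 change -3.22 ± 0.25, adjusted p = 5.02e-04). FER4 was at 0 in the 2 libraries of iron-deficient leaves and stood at 17.8 and 13.7 FPKM in control leaves. FER3 did not follow, with 12.1 and 18.8 FPKM in iron-deficient leaves, against 15.7 and 12.1 FPKM in control leaves, overlapping groups and no call (log2 change 0.12 ± 0.24, adjusted p = 0.722). AT1G21140, a member of the vacuolar iron transporter family, had 0.509 and 0.0413 FPKM in iron-deficient leaves, against 3.0 and 3.09 FPKM in control leaves (log2 change -1.69 ± 0.25, adjusted p = 0.00458). AT1G76800 of the same family had 3.47 and 2.98 FPKM in iron-deficient leaves, against 9.81 and 6.90 FPKM in control leaves (log2 change -1.13 ± 0.22, adjusted p = 0.0108), with an adjusted p of 0.0619 without iron deficiency 2. NEET, an iron-sulfur protein of plastids and mitochondria, had 0.257 and 0.476 FPKM in iron-deficient leaves, against 211 and 239 FPKM in control leaves (log2 change -7.37 ± 0.38, adjusted p = 1.05e-04), the largest fall by log2 change of any nuclear gene weighted here. Within the nicotianamine synthases the members went opposite ways, since NAS3 had 0.241 and 0.513 FPKM in iron-deficient leaves, against 7.06 and 7.19 FPKM in control leaves (log2 change -2.57 ± 0.29, adjusted p = 0.00186), where NAS4 rose, and NAS1 had 77.7 and 74.0 FPKM in iron-deficient leaves, against 64.9 and 66.6 FPKM in control leaves (log2 change 0.20 ± 0.09, adjusted p = 0.121). YSL1, a transporter of iron bound to nicotianamine, had 0.663 and 1.33 FPKM in iron-deficient leaves, against 6.50 and 5.73 FPKM in control leaves (log2 change -1.85 ± 0.22, adjusted p = 0.00238). PIC1, the iron permease of the chloroplast envelope, had 76.4 and 87.0 FPKM in iron-deficient leaves, against 113 and 113 FPKM in control leaves (log2 change -0.47 ± 0.11, adjusted p = 0.0184), with an adjusted p of 0.0854 without control 2.

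Assembly of iron-sulfur clusters is carried out by separate machineries in plastids, mitochondria and cytosol. In the plastid 1 of 11 tested genes rose and 2 fell. ABCI8, the SUFB scaffold subunit, had 11.3 and 13.7 FPKM in iron-deficient leaves, against 78.3 and 89.6 FPKM in control leaves (log2 change -2.65 ± 0.17, adjusted p = 2.60e-04), whereas the other tested subunits of its complex were not called. The glutaredoxin GRXS16 fell (-0.70 ± 0.12, adjusted p = 0.00772). The plastid cysteine desulfurase NFS2 rose (0.56 ± 0.14, adjusted p = 0.0236), with an adjusted p of 0.0964 without iron deficiency 2. For mitochondria and cytosol together, 6 of 14 tested genes rose and 1 fell, 2 of the rises under every scaling. These 2 were the mitochondrial desulfurase NFS1, with 102 and 113 FPKM in iron-deficient leaves, against 53.7 and 50.1 FPKM in control leaves (log2 change 1.04 ± 0.11, adjusted p = 0.00176), and TAH18, a reductase of the cytosolic pathway, with 8.4 and 7.95 FPKM in iron-deficient leaves, against 4.54 and 3.52 FPKM in control leaves (log2 change 0.87 ± 0.15, adjusted p = 0.00658). ISU1, the mitochondrial scaffold, had 165 and 190.4 FPKM in iron-deficient leaves, against 131 and 134 FPKM in control leaves and was not called (log2 change 0.41 ± 0.15, adjusted p = 0.0765).

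Enzymes that carry iron-sulfur clusters or haem changed gene by gene. In the plastid 2 of 15 tested genes rose and 3 fell. Sulfite reductase SIR had 48.7 and 51.3 FPKM in iron-deficient leaves, against 124 and 113 FPKM in control leaves (log2 change -1.23 ± 0.18, adjusted p = 0.00430). Nitrite reductase NIR1 had 53.3 and 65.0 FPKM in iron-deficient leaves, against 130.2 and 125 FPKM in control leaves (log2 change -1.10 ± 0.15, adjusted p = 0.00379). HCAR, which converts chlorophyll b towards chlorophyll a, fell (-0.79 ± 0.12, adjusted p = 0.00556). THIC, an iron-sulfur enzyme of thiamine synthesis, went the other way, with 217 and 215 FPKM in iron-deficient leaves, against 139 and 126 FPKM in control leaves (log2 change 0.70 ± 0.10, adjusted p = 0.00367). Of 17 respiratory genes 2 rose and 4 fell. Cytochrome c gene CYTC-1 had 213 and 232 FPKM in iron-deficient leaves, against 130.5 and 144 FPKM in control leaves (log2 change 0.70 ± 0.09, adjusted p = 0.00357), and the complex I subunit CI51 rose (0.58 ± 0.08, adjusted p = 0.00425). Both listed genes for the iron-sulfur subunit of succinate dehydrogenase fell, SDH2-1 (-0.67 ± 0.10, adjusted p = 0.00485) and SDH2-2 (-1.18 ± 0.27, adjusted p = 0.0176), the second with an adjusted p of 0.0832 without control 2. SDH1-2, a gene for the flavoprotein subunit of that enzyme, had 16.5 and 19.6 FPKM in iron-deficient leaves, against 0.0177 and 0.0113 FPKM in control leaves (log2 change 4.22 ± 0.15, adjusted p = 2.52e-05), so subunits of the same enzyme moved in opposite directions.

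Tetrapyrrole synthesis leads from glutamate to haem and chlorophyll. Of 32 tested genes 16 fell and 16 were not called, 11 of the falls under every scaling, with a median log2 change of -0.40. How many fell depended on scaling: 27 under median-ratio scaling and 11 when scaled to nuclear coding FPKM, where 3 rose. The first committed step stood apart. HEMA1, which makes glutamyl-tRNA reductase, had 9.18 and 14.7 FPKM in iron-deficient leaves, against 283 and 294 FPKM in control leaves (log2 change -4.52 ± 0.23, adjusted p = 1.00e-04). The next largest fall was that of PORB, a light-dependent protochlorophyllide reductase, with 85.6 and 119 FPKM in iron-deficient leaves, against 493 and 483 FPKM in control leaves (log2 change -2.26 ± 0.15, adjusted p = 2.99e-04). PCB2, which reduces the vinyl group of chlorophyll precursors, had 26.3 and 30.1 FPKM in iron-deficient leaves, against 65.3 and 74.0 FPKM in control leaves (log2 change -1.28 ± 0.12, adjusted p = 0.00116). UPM1, at the entry of the branch to sirohaem, had 19.9 and 21.4 FPKM in iron-deficient leaves, against 45.4 and 48.6 FPKM in control leaves (log2 change -1.15 ± 0.10, adjusted p = 6.73e-04). In the magnesium chelatase, CHLH had 265 and 320.5 FPKM in iron-deficient leaves, against 583 and 507 FPKM in control leaves (log2 change -0.90 ± 0.12, adjusted p = 0.00376) and CHLI2 fell (-0.86 ± 0.16, adjusted p = 0.00888). The cyclase gene CRD1, whose product holds iron, was the most abundant gene of the pathway, with 1258 and 1528 FPKM in iron-deficient leaves, against 1807 and 1834 FPKM in control leaves, and was not called (log2 change -0.39 ± 0.13, adjusted p = 0.0577). The ferrochelatase genes, at the branch to haem, were not called either.

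**Figure D3:**
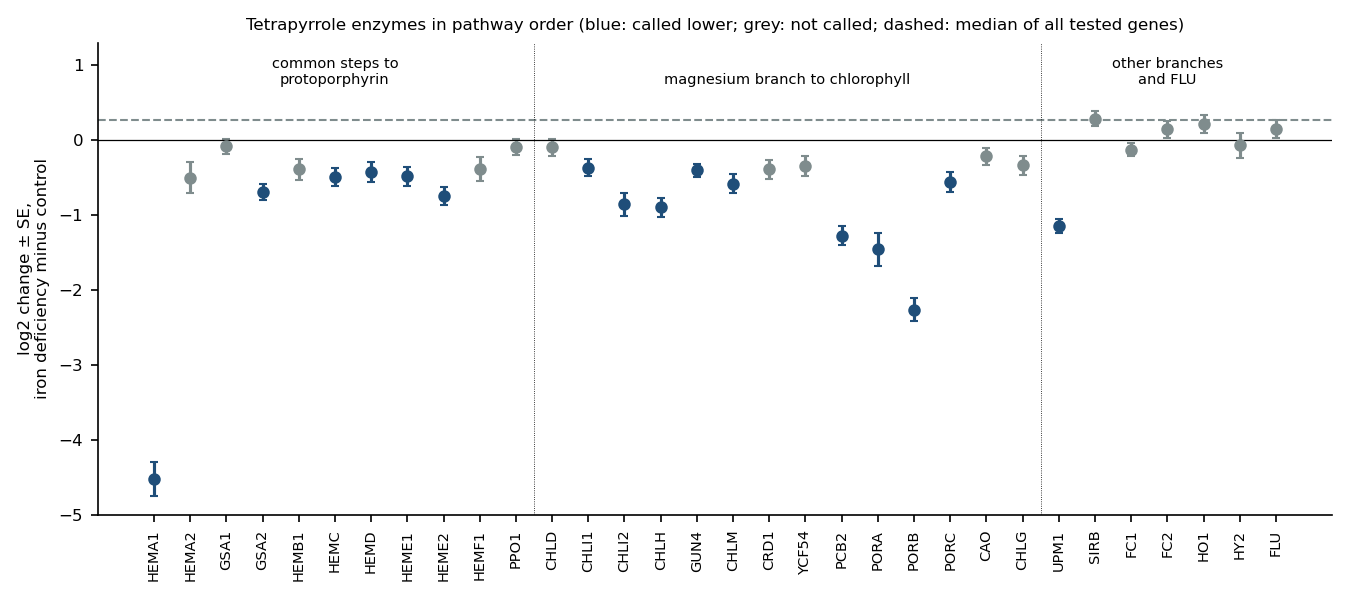
Log2 change (iron deficiency minus control, FPKM + 1) ± standard error of the tetrapyrrole genes in the order of the pathway. Blue points are called lower at an adjusted p under 0.05, and grey points are not called. HEMA1 at -4.52 and PORB at -2.26 lie lowest, and the other called genes lie between -1.46 and -0.37.

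Chlorophyll breakdown did not move as 1 pathway. Of 9 tested genes 5 rose and 1 fell, 3 of the rises and the fall under every scaling. The fall was NYC1, a chlorophyll b reductase that opens the breakdown of the light-harvesting complex, with 2.38 and 2.96 FPKM in iron-deficient leaves, against 46.6 and 41.8 FPKM in control leaves (log2 change -3.63 ± 0.13, adjusted p = 2.38e-05). SGR1, which removes magnesium from chlorophyll, had 26.1 and 33.0 FPKM in iron-deficient leaves, against 14.3 and 10.3 FPKM in control leaves (log2 change 1.2 ± 0.20, adjusted p = 0.00643). PPH, a pheophytinase, had 57.6 and 56.2 FPKM in iron-deficient leaves, against 36.0 and 31.4 FPKM in control leaves (log2 change 0.74 ± 0.09, adjusted p = 0.00251). SGR2, a relative of SGR1, rose (1.55 ± 0.32, adjusted p = 0.0130), with an adjusted p of 0.0620 without iron deficiency 1. Among carotenoid genes 6 of 15 rose and 3 fell, with 1 of each under every scaling. BCH1, a beta-carotene hydroxylase and itself a non-haem iron enzyme, had 322 and 316 FPKM in iron-deficient leaves, against 31.3 and 27.7 FPKM in control leaves (log2 change 3.40 ± 0.09, adjusted p = 9.22e-06). The gene of its close relative was not called. VDE, which makes zeaxanthin from violaxanthin in strong light, had 24.3 and 30.2 FPKM in iron-deficient leaves, against 58.9 and 51.5 FPKM in control leaves (log2 change -1.0 ± 0.17, adjusted p = 0.00698).

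Nuclear genes for photosystem proteins fell nearly throughout on the deposited scale. In photosystem I, 17 of 18 tested genes fell, with a median log2 change of -1.35, and 12 fell under every scaling. In photosystem II, 24 of 26 fell and 1 rose, with a median of -1.37, and 16 fell under every scaling. The falls differed widely between subunits of the same complex. Of the genes for the main light-harvesting protein, LHB1B1 (LHCB1.4) had 226 and 446 FPKM in iron-deficient leaves, against 3945 and 3730.1 FPKM in control leaves (log2 change -3.59 ± 0.32, adjusted p = 8.38e-04). LHCB1.3 (CAB1), the most abundant of them, had 6507 and 8596 FPKM in iron-deficient leaves, against 23278 and 22922 FPKM in control leaves (log2 change -1.63 ± 0.20, adjusted p = 0.00262). LHB1B2 (LHCB1.5) fell by less (-0.85 ± 0.19, adjusted p = 0.0163), with an adjusted p of 0.103 without control 2. These copies are close in sequence, so the split of reads between them is uncertain. PSBTN, a small subunit of photosystem II, had 582 and 762 FPKM in iron-deficient leaves, against 3994 and 4333 FPKM in control leaves (log2 change -2.64 ± 0.23, adjusted p = 8.22e-04). PSBS, needed for the dissipation of excess light, had 1593 and 1744 FPKM in iron-deficient leaves, against 1575 and 1607 FPKM in control leaves and no call (log2 change 0.07 ± 0.12, adjusted p = 0.712). LHCA5, a minor antenna protein of photosystem I, was the member of that list that was not called (log2 change -0.20 ± 0.20, adjusted p = 0.486). ELIP1, an early light-induced protein, rose, with 25.6 and 25.9 FPKM in iron-deficient leaves, against 3.91 and 5.22 FPKM in control leaves (log2 change 2.27 ± 0.20, adjusted p = 7.76e-04).

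In electron transport 9 of 21 tested genes fell and 3 rose, 6 and 1 of them under every scaling. The cytochrome b6f subunit gene PETM had 228 and 294 FPKM in iron-deficient leaves, against 1509.7 and 1669.9 FPKM in control leaves (log2 change -2.61 ± 0.15, adjusted p = 1.57e-04). The ferredoxins moved in opposite directions. FD2, the main leaf ferredoxin, had 219 and 304 FPKM in iron-deficient leaves, against 2728 and 2949 FPKM in control leaves (log2 change -3.45 ± 0.22, adjusted p = 2.31e-04). FD1 had 924 and 1100.1 FPKM in iron-deficient leaves, against 477 and 585 FPKM in control leaves (log2 change 0.93 ± 0.14, adjusted p = 0.00529), and its mean level was above that of FD2 in iron-deficient leaves and below it in control leaves. Of 25 genes of carbon fixation and photorespiration 10 fell and 3 rose, 6 and 2 of them under every scaling. Falls included AGT1, a photorespiratory aminotransferase, with 526 and 618 FPKM in iron-deficient leaves, against 1042 and 1078 FPKM in control leaves (log2 change -0.89 ± 0.13, adjusted p = 0.00396). GLDP1, of the glycine decarboxylase of mitochondria, rose, with 882 and 917 FPKM in iron-deficient leaves, against 510.0 and 452 FPKM in control leaves (log2 change 0.90 ± 0.11, adjusted p = 0.00212). RBCS1A, the most abundant gene for the Rubisco small subunit, had 11448 and 13724 FPKM in iron-deficient leaves, against 16686 and 18769 FPKM in control leaves and was not called (log2 change -0.50 ± 0.21, adjusted p = 0.119), nor was Rubisco activase, RCA (log2 change -0.47 ± 0.15, adjusted p = 0.0565).

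Regulators of plastid genes changed in both directions. Of 16 tested, 6 rose and 1 fell, 5 and 1 of them under every scaling. SIG1, a sigma factor for plastid transcription, had 33.9 and 43.6 FPKM in iron-deficient leaves, against 108 and 111 FPKM in control leaves (log2 change -1.48 ± 0.14, adjusted p = 9.64e-04), whereas SIGE (SIG5), the light and stress responsive sigma factor, had 143 and 152 FPKM in iron-deficient leaves, against 40.4 and 37.1 FPKM in control leaves (log2 change 1.90 ± 0.13, adjusted p = 3.09e-04). CGA1, a GATA factor that promotes chloroplast growth, had 16.7 and 19.3 FPKM in iron-deficient leaves, against 2.36 and 2.36 FPKM in control leaves (log2 change 2.49 ± 0.19, adjusted p = 4.65e-04). HY5, a bZIP factor of light signalling, rose (1.76 ± 0.17, adjusted p = 0.00116), and so did GUN1, which acts in signalling from plastid to nucleus (0.90 ± 0.13, adjusted p = 0.00478). GLK1, a direct activator of photosystem and chlorophyll genes, had 170.0 and 216 FPKM in iron-deficient leaves, against 225 and 197 FPKM in control leaves and was not called (log2 change -0.13 ± 0.15, adjusted p = 0.530).

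Genes of the alternative respiratory pathway and the mitochondrial stress response rose. Of 15 listed, 13 were tested, 11 rose and 2 were not called, 9 under every scaling and the same number without any 1 library, with a median log2 change of 1.70. AOX1A, the main alternative oxidase, which passes electrons from ubiquinol to oxygen, had 287 and 331 FPKM in iron-deficient leaves, against 26.4 and 25.6 FPKM in control leaves (log2 change 3.51 ± 0.12, adjusted p = 2.01e-05). The alternative NAD(P)H dehydrogenase genes, which feed it, rose by less: NDB2 had 26.5 and 29.5 FPKM in iron-deficient leaves, against 6.61 and 8.24 FPKM in control leaves (log2 change 1.79 ± 0.17, adjusted p = 0.00109), and NDA2 and NDA1 had log2 changes of 1.12 and 0.72. AOX1D stood at 3.2 and 2.06 FPKM in iron-deficient leaves, against 1.56 and 0.0154 FPKM in control leaves and was not called (log2 change 1.15 ± 0.49, adjusted p = 0.121). The markers of this response changed most. AT5G51440, a small heat shock protein, had 149 and 158 FPKM in iron-deficient leaves, against 0.946 and 1.19 FPKM in control leaves (log2 change 6.23 ± 0.12, adjusted p = 2.41e-06). AT2G21640, annotated as a marker of the response to oxidative stress, had 336 and 372 FPKM in iron-deficient leaves, against 18.1 and 16.3 FPKM in control leaves (log2 change 4.29 ± 0.12, adjusted p = 1.06e-05). UGT74E2, a glycosyltransferase that acts on an auxin, had 44.2 and 53.3 FPKM in iron-deficient leaves, against 0.202 and 0.0322 FPKM in control leaves (log2 change 5.47 ± 0.19, adjusted p = 2.22e-05). UGT74E2 was under 1 FPKM in every library supplied with iron, and AT5G51440 reached 1 FPKM there in control 2 alone. Both were let into the test only through libraries without iron. NAC13, a factor tethered to membranes that activates such genes, had 70.3 and 88.8 FPKM in iron-deficient leaves, against 5.85 and 7.15 FPKM in control leaves (log2 change 3.42 ± 0.21, adjusted p = 2.13e-04). OM66, a protein of the outer mitochondrial membrane, rose as well (1.70 ± 0.17, adjusted p = 0.00118). NAC017, which also controls this response, rose by 0.40, and was not called without iron deficiency 2 (adjusted p = 0.186) or control 2 (0.174). NAC13, OM66, NDB2, NDA1 and NDA2 were named after their values were seen.

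NAC13 and its relatives are known to bind the mitochondrial dysfunction motif. It was searched in a looser form, CTTG, 5 unspecified bases, CA, 1 unspecified base and G, where the known motif takes A or C before the last G. On either strand this form lay within 250 bases before the start in 6 of the 15 listed genes and in 1.75% of the 27443 nuclear coding genes. The count among the listed genes draws on few genes and is a description. It also occurred in 4 of the 15 nuclear genes with the largest rises by log2 change, a pick made on these data. Of 481 promoters with this form, 203 hold at the same base the palindrome described with the DNA damage genes, so the counts of the 2 motifs are not separate. The 150 bases before AT2G21640 (chr2:9254228-9254377 on the plus strand), NDA1 (chr1:2203954-2204103 on the plus strand) and AT2G18193 (chr2:7919346-7919495 on the minus strand) are shown as examples, with the motif in capitals. AT2G18193, a nucleotide-binding protein outside the list, is among the largest rises.
AT2G21640: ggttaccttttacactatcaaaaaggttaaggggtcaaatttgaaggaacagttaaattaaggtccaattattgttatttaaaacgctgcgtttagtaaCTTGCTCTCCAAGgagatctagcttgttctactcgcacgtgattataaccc
NDA1: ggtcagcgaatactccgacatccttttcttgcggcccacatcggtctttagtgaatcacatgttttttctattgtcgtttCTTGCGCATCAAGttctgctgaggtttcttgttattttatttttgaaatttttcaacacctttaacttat
AT2G18193: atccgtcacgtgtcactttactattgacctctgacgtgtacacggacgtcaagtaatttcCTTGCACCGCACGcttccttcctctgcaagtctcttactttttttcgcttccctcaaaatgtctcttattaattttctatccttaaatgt
The motif began 51 bases before the start in AT2G21640, 70 in NDA1 and 90 in AT2G18193. The marked stretches of AT2G21640 and NDA1 also match that palindrome at the same bases, so they fit both motifs. The genes differed in size of change, at 4.29, 0.72 and 7.36 log2 units. All 3 are examples that hold the motif, so its presence in them is not a result. AOX1A, UGT74E2 and NAC13 rose without a match in the window searched, whereas NAC017, whose call rested on single libraries, held one.

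Genes of the DNA damage response stood out among the rises, and a list of 28 was drawn up after their values were seen, so its counts describe these libraries and test nothing. Plants answer DNA breaks and stalled replication through the kinases ATM and ATR and the NAC factor SOG1, which stop the cell cycle and switch on repair. Of 27 tested genes 22 rose and 5 were not called, 19 under every scaling, with a median log2 change of 2.17. Over the other settings 17 to 22 rose. NAC044, NAC085, GMI1, RAD54, SYN2 and AT4G19130 were under 1 FPKM in every library supplied with iron. CYCB1;1 and RAD17 reached 1 FPKM there in control 1 alone. Such genes were let into the test only through libraries without iron, so the share called and the median are partly set by the filter. NAC044, a NAC factor downstream of SOG1, had 32.6 and 41.8 FPKM in iron-deficient leaves, against 0.310 and 0.107 FPKM in control leaves (log2 change 4.98 ± 0.17, adjusted p = 2.02e-05). ATR, counted among these rises, stood at 2.00 and 1.76 FPKM in iron-deficient leaves and was listed at 0 in the other 6 libraries, those of the double deficiency included, so it was tested through the iron-deficient libraries alone. SOG1 itself rose by 0.69, with an adjusted p of 0.127 without iron deficiency 2. Inhibitors and brakes of the cell cycle followed. AT3G27630, an inhibitor of cyclin-dependent kinases, had 39.6 and 51.2 FPKM in iron-deficient leaves, against 0.636 and 2.07 FPKM in control leaves (log2 change 4.36 ± 0.31, adjusted p = 3.74e-04). WEE1, a kinase that holds the cycle, had 9.03 and 10.1 FPKM in iron-deficient leaves, against 1.75 and 0.999 FPKM in control leaves (log2 change 2.17 ± 0.24, adjusted p = 0.00179).

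Among repair genes 8 of 12 rose. AT4G02390, a poly(ADP-ribose) polymerase that marks breaks, had 33.5 and 42.8 FPKM in iron-deficient leaves, against 1.87 and 1.05 FPKM in control leaves (log2 change 4.00 ± 0.25, adjusted p = 2.31e-04). BRCA1, of homologous recombination, had 12.2 and 13.0 FPKM in iron-deficient leaves, against 2.1 and 0.822 FPKM in control leaves (log2 change 2.52 ± 0.25, adjusted p = 0.00123). GMI1, induced by gamma rays in other studies, had 10.8 and 11.2 FPKM in iron-deficient leaves, against 0.260 and 0.123 FPKM in control leaves (log2 change 3.34 ± 0.15, adjusted p = 6.60e-05). The genes of end joining were not among the rises: KU70, KU80 and the ligase gene ATLIG4 had log2 changes of 0.31, 0.11 and 0.47 and were not called. TSO2, a small subunit of ribonucleotide reductase, an iron enzyme that makes the building blocks of DNA, was the most abundant gene of this group. It had 582 and 672 FPKM in iron-deficient leaves, against 41.6 and 24.0 FPKM in control leaves (log2 change 4.26 ± 0.25, adjusted p = 1.60e-04). The second small subunit gene RNR2A rose by 0.89, and the large subunit gene RNR1, with 15.8 and 17.6 FPKM in iron-deficient leaves, against 18.5 and 11.1 FPKM in control leaves, was not called (log2 change 0.20 ± 0.24, adjusted p = 0.557). POLD4, a subunit of a replicative DNA polymerase, had 148 and 168 FPKM in iron-deficient leaves, against 41.6 and 37.0 FPKM in control leaves (log2 change 1.98 ± 0.11, adjusted p = 1.24e-04).

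**Figure D4:**
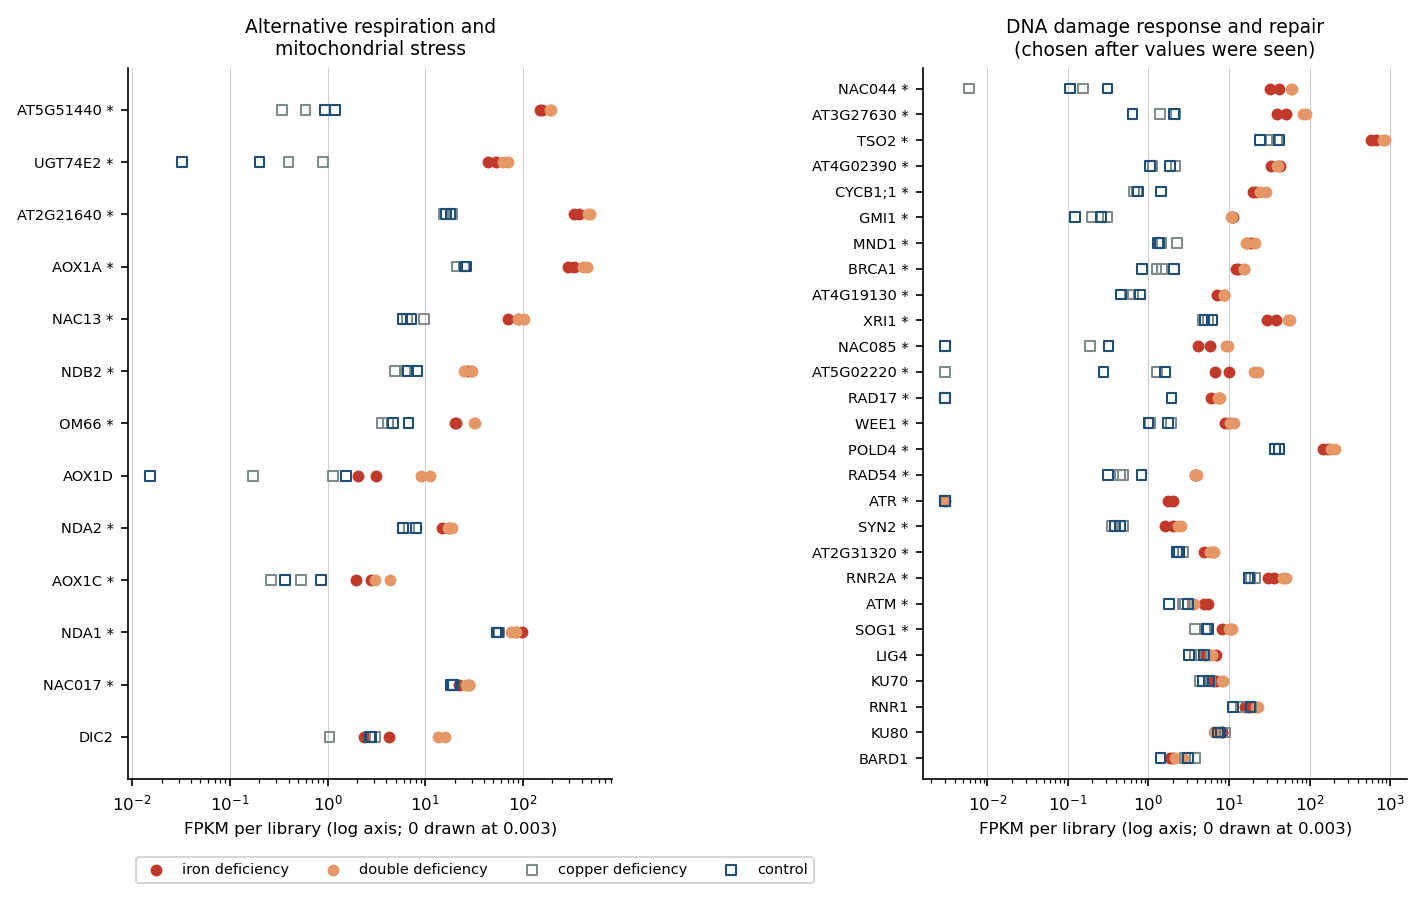
FPKM on a log axis of alternative respiration genes and DNA damage genes in each library of the 4 groups. Points are single libraries, and values of 0 are drawn at 0.003 FPKM. AOX1A lies at 287 and 331 FPKM in iron deficiency and at 26.4 and 25.6 FPKM in controls, and TSO2 at 582 and 672 FPKM in iron deficiency and at 41.6 and 24.0 FPKM in controls.

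SOG1 is known to bind a palindrome of CTT and AAG with 7 unspecified bases between them. It lay within 250 bases before the start in 6 of the 28 listed genes and in 9.71% of all 27443 nuclear coding genes. The 150 bases before NAC044 (chr3:228925-229074 on the plus strand), AT3G27630 (chr3:10231568-10231717 on the minus strand) and AT4G02390 (chr4:1049616-1049765 on the plus strand) are shown, 1 for each role from regulator to repair, with the palindrome in capitals. They are examples among the genes that hold the palindrome.
NAC044: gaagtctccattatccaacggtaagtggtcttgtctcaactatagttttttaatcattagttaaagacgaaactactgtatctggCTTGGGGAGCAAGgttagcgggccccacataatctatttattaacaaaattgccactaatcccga
AT3G27630: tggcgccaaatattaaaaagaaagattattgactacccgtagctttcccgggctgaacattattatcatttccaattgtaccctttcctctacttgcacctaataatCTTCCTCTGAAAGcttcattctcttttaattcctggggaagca
AT4G02390: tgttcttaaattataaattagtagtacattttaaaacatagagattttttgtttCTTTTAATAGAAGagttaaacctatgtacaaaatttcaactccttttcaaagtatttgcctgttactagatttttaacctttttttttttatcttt
The palindrome began 65 bases before the start in NAC044, 43 in AT3G27630 and 96 in AT4G02390. The marked stretch of NAC044 also matches the looser form of the mitochondrial dysfunction motif at the same bases. TSO2, BRCA1 and GMI1 rose without a match in the window searched.

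Genes of cell division were not raised as a whole. Of 33 tested cell cycle genes 9 rose and 24 were not called, near the background of 27.2%, and 6 rose under every scaling. The rises included CYCB1;1, a mitotic cyclin that is also a known DNA damage gene, with 19.7 and 21.6 FPKM in iron-deficient leaves, against 1.42 and 0.743 FPKM in control leaves (log2 change 3.39 ± 0.19, adjusted p = 1.49e-04). CDKB2;1, a mitotic kinase, had 17.9 and 19.8 FPKM in iron-deficient leaves, against 6.62 and 5.48 FPKM in control leaves (log2 change 1.5 ± 0.19, adjusted p = 0.00277). The replication clamp genes PCNA1 and PCNA2 had log2 changes of -0.74 and -0.81 with adjusted p of 0.0644 and 0.0509. Under median-ratio scaling 4 genes of the cell cycle list fell.

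Among sugar transport genes more rose than fell, though their summed level was lower. Of 14 tested, 8 rose and 2 fell, 6 and 1 under every scaling. The list summed to 1049 and 1218 FPKM in iron-deficient leaves, against 1330 and 1439 FPKM in control leaves. SAG29 (SWEET15), a sucrose exporter, had 73.7 and 60.2 FPKM in iron-deficient leaves, against 1.74 and 2.02 FPKM in control leaves (log2 change 4.55 ± 0.52, adjusted p = 0.00209). SWEET11, which exports sucrose for phloem loading, had 60.1 and 84.8 FPKM in iron-deficient leaves, against 22.4 and 22.5 FPKM in control leaves (log2 change 1.63 ± 0.17, adjusted p = 0.00164). SUC1, a sucrose importer, had 84.4 and 99.7 FPKM in iron-deficient leaves, against 31.2 and 32.0 FPKM in control leaves (log2 change 1.51 ± 0.11, adjusted p = 3.55e-04). The hexose importer STP13 and the cell wall invertase CWINV1 rose by 0.77 and 1.02, and STP1 was not called (log2 change -0.26 ± 0.21, adjusted p = 0.369). TPT, which exports triose phosphate from the chloroplast, fell (-0.71 ± 0.12, adjusted p = 0.00696), with an adjusted p of 0.0532 without control 2. In starch metabolism 7 of 19 rose and 3 fell, 2 of each under every scaling. GBSS1, which makes amylose, had 154 and 174 FPKM in iron-deficient leaves, against 45.6 and 45.4 FPKM in control leaves (log2 change 1.83 ± 0.10, adjusted p = 1.49e-04). BAM5, a beta-amylase outside the plastid, had 5.28 and 5.42 FPKM in iron-deficient leaves, against 57.5 and 34.3 FPKM in control leaves (log2 change -2.84 ± 0.37, adjusted p = 0.00324). PGM1, the plastid phosphoglucomutase, fell (-0.74 ± 0.13, adjusted p = 0.00890).

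Clock genes were higher in part. Of 11 tested genes of the morning loop 8 rose, 5 under every scaling, and of 16 of the evening loop 7 rose, 1 under every scaling. LHY, a morning repressor, had 28.9 and 32.3 FPKM in iron-deficient leaves, against 4.80 and 4.43 FPKM in control leaves (log2 change 2.49 ± 0.10, adjusted p = 4.52e-05), and its partner CCA1 had 94.6 and 114 FPKM in iron-deficient leaves, against 35.9 and 34.8 FPKM in control leaves (log2 change 1.53 ± 0.14, adjusted p = 8.43e-04). Each of the 7 evening calls was lost when 1 library or another was left out, for example that of PRR5 with an adjusted p of 0.0577 without iron deficiency 2. Harvest at 1 time of day means that a shift in phase and a change in level cannot be told apart here.

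Reactive oxygen genes split by gene. Of 17 tested, 6 fell, all under every scaling, and 3 rose, though not under every scaling. FSD1, an iron superoxide dismutase, fell furthest (log2 change -7.30 ± 0.36, adjusted p = 9.00e-05). FSD1 had 1.83 and 0.460 FPKM in iron-deficient leaves, against 400 and 256 FPKM in control leaves. SAPX, the stromal ascorbate peroxidase, fell too (-3.53 ± 0.10, adjusted p = 1.25e-05). APX1, the cytosolic ascorbate peroxidase, a haem enzyme, had 67.6 and 93.0 FPKM in iron-deficient leaves, against 406 and 414 FPKM in control leaves (log2 change -2.35 ± 0.16, adjusted p = 3.19e-04). CAT1, a catalase, also a haem enzyme, had 5.24 and 6.31 FPKM in iron-deficient leaves, against 21.3 and 18.7 FPKM in control leaves (log2 change -1.63 ± 0.18, adjusted p = 0.00176). CAT2, the main leaf catalase, went the other way (0.77 ± 0.19, adjusted p = 0.0231), with an adjusted p of 0.106 without iron deficiency 2. Of 9 tested zinc finger genes of the ZAT and AZF families, which respond to many stresses, 5 rose, all under every scaling, among them AZF2, with 12.8 and 15.9 FPKM in iron-deficient leaves, against 5.32 and 4.65 FPKM in control leaves (log2 change 1.35 ± 0.16, adjusted p = 0.00212).

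The plant-specific glutaredoxins with a CC-type active site act with transcription factors in redox and nitrogen responses. Of 14 tested 3 fell, all under every scaling, and 11 were not called. AT3G21460 had 0.302 and 0.507 FPKM in iron-deficient leaves, against 19.6 and 18.4 FPKM in control leaves (log2 change -3.84 ± 0.15, adjusted p = 2.97e-05). AT3G62950 had 0.828 and 1.60 FPKM in iron-deficient leaves, against 8.91 and 10.2 FPKM in control leaves (log2 change -2.28 ± 0.22, adjusted p = 0.00113), and AT3G62930 had 0.571 and 0.937 FPKM in iron-deficient leaves, against 4.87 and 5.17 FPKM in control leaves (log2 change -1.79 ± 0.18, adjusted p = 0.00130). In each the iron-deficient libraries lay below both controls with a wide gap. Several members of this family lie side by side and are nearly identical, so the counts of single genes are uncertain. Genes for loosening the cell wall fell: 5 of 9 tested expansins, 4 under every scaling, and 5 of 14 tested XTH genes, all 5 under every scaling. EXPA8 had 21.5 and 45.8 FPKM in iron-deficient leaves, against 119.6 and 168 FPKM in control leaves (log2 change -2.14 ± 0.33, adjusted p = 0.00536), with iron deficiency 1 lowest, and XTH31 had 34.5 and 39.8 FPKM in iron-deficient leaves, against 116 and 149 FPKM in control leaves (log2 change -1.80 ± 0.15, adjusted p = 7.36e-04). Of 11 tested cytokinin genes 5 fell, 3 under every scaling. IPT3, which makes cytokinin, had 4.85 and 6.64 FPKM in iron-deficient leaves, against 12.8 and 13.7 FPKM in control leaves (log2 change -1.09 ± 0.19, adjusted p = 0.00723), and the response regulator ARR5 had 8.04 and 7.73 FPKM in iron-deficient leaves, against 15.8 and 17.0 FPKM in control leaves (log2 change -0.97 ± 0.15, adjusted p = 0.00520).

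**Figure D5:**
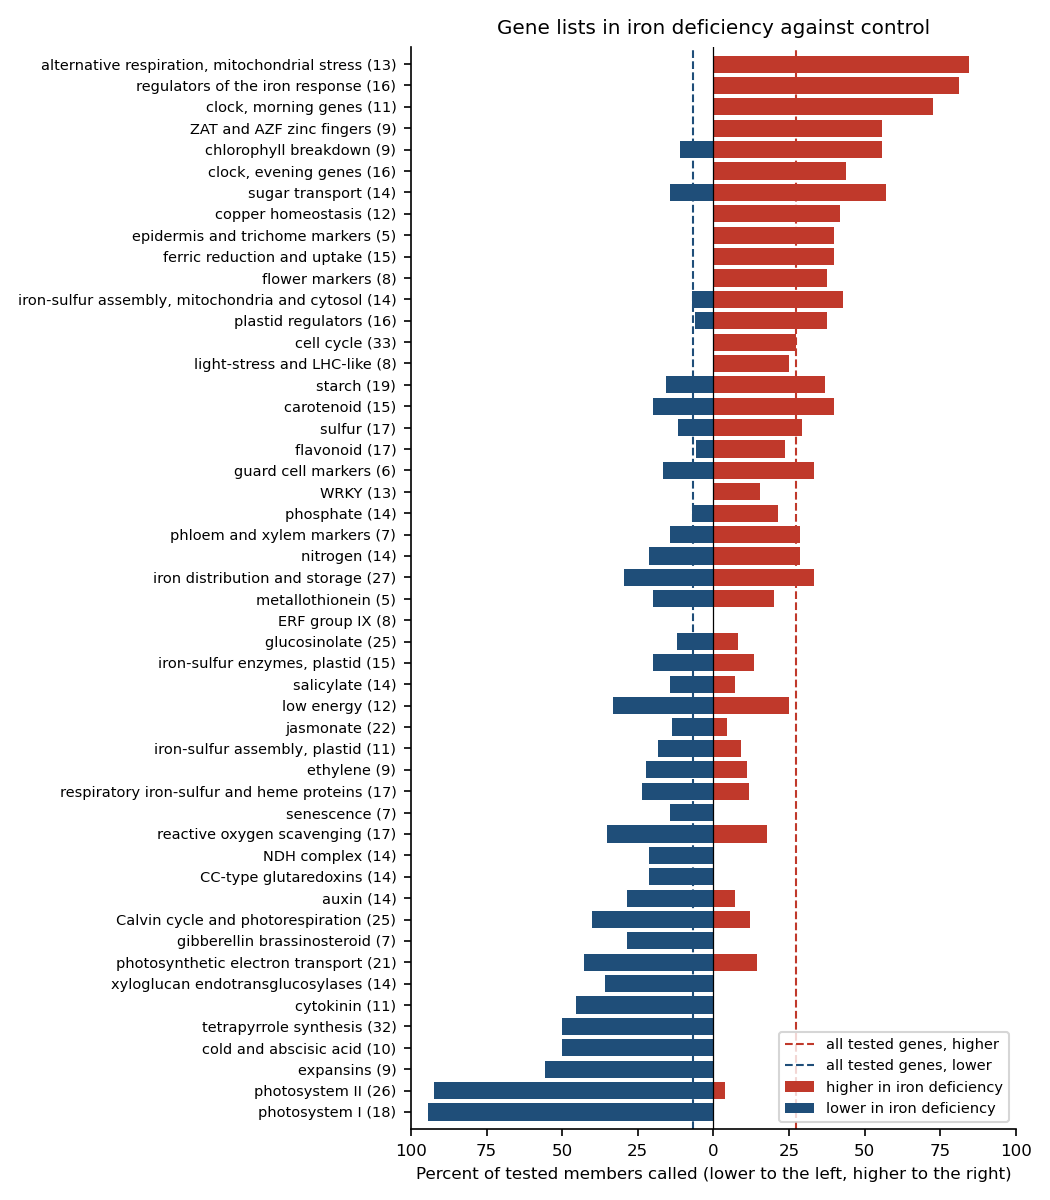
Percent of the tested members of each gene list with at least 5 tested members, the DNA damage list left out, that were higher (right) or lower (left) in iron deficiency, at a limma adjusted p under 0.05. Dashed lines mark all tested genes, 27.2% higher and 6.85% lower. The regulators of the iron response (13 of 16) and alternative respiration (11 of 13) lie furthest right, and the 2 photosystem lists (17 of 18 and 24 of 26) furthest left.

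The largest rises by log2 change, outside the lists, were mostly of genes with little annotation. AT1G12030 and AT1G62420, 2 genes of the DUF506 family, had 149 and 138 against 0.211 and 0.188 FPKM (iron-deficient against control leaves) and 137 and 131 against 0.309 and 0.159 FPKM. AT1G24580, a RING-type protein, had 281 and 293 FPKM in iron-deficient leaves, against 3.01 and 3.98 FPKM in control leaves (log2 change 6.01 ± 0.23, adjusted p = 2.88e-05). AT2G04070, a MATE efflux protein, had 97.9 and 111 FPKM in iron-deficient leaves, against 0.955 and 0.693 FPKM in control leaves (log2 change 5.86 ± 0.13, adjusted p = 3.31e-06), and AT2G41730, annotated for a calcium-binding site, had 154 and 198 FPKM in iron-deficient leaves, against 2.65 and 2.14 FPKM in control leaves (log2 change 5.70 ± 0.17, adjusted p = 1.21e-05). By difference in FPKM the largest rise was GRP3S, a short glycine-rich protein, with 1746 and 2292 FPKM in iron-deficient leaves, against 214 and 369.6 FPKM in control leaves (log2 change 2.83 ± 0.39, adjusted p = 0.00367). CGLD27, a plastid protein of the DUF1230 family conserved in green plants, had 512 and 532 FPKM in iron-deficient leaves, against 63.1 and 73.6 FPKM in control leaves (log2 change 2.92 ± 0.24, adjusted p = 6.02e-04), and AT2G42750, a DNAJ-like protein, 713 and 805 FPKM in iron-deficient leaves, against 139 and 127 FPKM in control leaves (log2 change 2.50 ± 0.26, adjusted p = 0.00144). Among the largest falls by log2 change were AT3G43670, a copper amine oxidase, with 0.230 and 0.441 FPKM in iron-deficient leaves, against 19.5 and 20.2 FPKM in control leaves (log2 change -3.97 ± 0.15, adjusted p = 3.03e-05), and AT3G55240, of unknown function, with 5.08 and 6.59 FPKM in iron-deficient leaves, against 103 and 101 FPKM in control leaves (log2 change -3.92 ± 0.17, adjusted p = 4.82e-05).

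The 8 genes whose log2 values were most like those of BHLH39 over the 8 libraries had Pearson coefficients of 0.998 to 1.000, a description with no p, since the libraries fall into those with and those without iron. First was AT1G07373, a non-coding RNA on chr1:17392374-17393026, with 402 and 399 FPKM in iron-deficient leaves, against 0.337 and 0.365 FPKM in control leaves. SDH1-2, the kinetochore protein AT3G48210, GMI1, AT2G04070, AT1G24580, AT2G18193 and the transporter ABCB4 followed. AT3G48210 had 33.3 and 36.4 FPKM in iron-deficient leaves, against 3.82 and 3.85 FPKM in control leaves, and ABCB4, an auxin transporter, 46.2 and 52.7 FPKM in iron-deficient leaves, against 1.09 and 1.2 FPKM in control leaves.

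Iron deficiency was also set against copper deficiency, in which iron was supplied. That contrast uses the same 2 iron-deficient libraries as the one with the control, so its own values are given and the 2 are not compared. Of the 17243 nuclear genes 4929 were higher and 1356 lower in iron deficiency (36.4% in all, 28.6% higher and 7.86% lower), and of the tested regulators of the iron response 13 of 16 were higher. Over all tested genes 6703 differed (35%), and 3612 without iron deficiency 2. Copper deficiency against control called 35 genes of 19171 (0.183%). The 2 copper-deficient libraries differed in make-up, with chloroplast transcripts at 11.2 and 0.278% of FPKM and nuclear messenger RNA at 78.7 and 93.4%. They correlated at r = 0.982. The part of this difference in the counts was not tested. BHLH39 had 346 and 375 FPKM in iron deficiency and 0.338 and 0.118 FPKM in copper deficiency. AOX1A had 287 and 331 FPKM in iron deficiency and 21.1 and 25 FPKM in copper deficiency. NEET had 0.257 and 0.476 FPKM in iron deficiency and 272 and 129.7 FPKM in copper deficiency. In each of the 3 the copper-deficient libraries lay on the side of the controls.

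Lack of copper on top of lack of iron changed few genes further. Double deficiency differed from iron deficiency in 141 of the 17243 nuclear genes (0.818%), 130 of them (0.754%) higher in the double deficiency. The count over all tested genes was 218 (1.14%), and 21 without double deficiency 2, 33 without double deficiency 1, 61 and 95 without iron deficiency 1 and 2, and 134 and 135 without control 1 and 2. AT3G21460, the glutaredoxin that fell furthest, had 7.59 and 7.79 FPKM in the double deficiency and 0.302 and 0.507 FPKM in iron deficiency (log2 difference 2.63, adjusted p = 7.64e-04). It was called also when any 1 library was left out, with adjusted p up to 0.0253. ZIP4 had 2.64 and 3.15 FPKM in the double deficiency and 11 and 10.8 FPKM in iron deficiency (log2 difference -1.61, adjusted p = 0.00720), so its double-deficient libraries lay below even the controls. ZAT10 had 45.2 and 41.4 FPKM in the double deficiency and 8.44 and 11.1 FPKM in iron deficiency (log2 difference 2.05, adjusted p = 0.00571). Without double deficiency 1 the adjusted p was 0.0896 for ZIP4 and 0.0844 for ZAT10. Double deficiency and iron deficiency were each set against the same 2 controls, so their changes from control are given side by side only. The log2 changes from control of BTS were 3.39 in the double deficiency and 3.87 in iron deficiency, of AOX1A 4.00 in the double deficiency and 3.51 in iron deficiency, and of HEMA1 -3.89 in the double deficiency and -4.52 in iron deficiency.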

How the data were processed

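RNA of rosette leaves was sequenced by the submitters from unstranded libraries, and reads from overlapping genes on either strand are pooled in them. Per the submitters' processing notes the tools were Trimmomatic, TopHat2 2.1.1, Cuffdiff and Cufflinks. Each deposited file lists FPKM, with the authors' lower and upper bound for every gene. Genome build, read totals and any scaling across libraries: not given in the sources used here. Relative depth was therefore read from the width of those bounds in 10665 genes. The growth periods do not add up to the labelled age of 20 d.

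Identifiers were matched to RefSeq TAIR10.1 (99.2% found, 99.9% of these at the same coordinates once 1 was added to the start), which gave names and promoter sequences. Genes at 1 FPKM or more in at least 2 of 8 libraries were tested with limma 3.58.1 in R 4.3.3 (lmFit, eBayes with a trend) on log2(FPKM + 1) in 1 model of 4 groups, with Benjamini-Hochberg adjustment over all 19171 genes. Adjusted p-values come from this fit. A permutation test of 2 against 2 libraries cannot go below p = 0.333 and was not used. The procedure was tested on simulated data.

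The members and the 52 gene lists (811 genes) were chosen with earlier results of these data known. Named genes were drawn from the members of the 3 iron lists, the 15 largest rises and falls by log2 change and 10 by FPKM, the 8 genes most like BHLH39, up to 4 called members per direction and 2 not called of other lists, and members of pathways in their order. Not every gene of these sets is named in the text. Genes that the text says were named after their values were seen, the DNA damage genes and STP13, CWINV1, RNR1, PGM1, HCAR and APX1 fall partly outside that rule. A gene of the DNA damage response is not reported here. Alternatives were other scalings (median-ratio, quantile, nuclear coding FPKM), a pseudocount of 0.1, a filter of 5 FPKM, no filter, the 4 libraries alone, a replicate block and leaving out each library. Near-identical copies, such as those of LHCB1, RBCS and the glutaredoxins, are uncertain. Depth limits genes near 1 FPKM most, and a value of 0 can be a failed estimate.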

Additional observations from a re-analysis of the deposited data

How the results depend on the processing

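Values were recomputed for 399 genes of the lists and the other sets drawn on, 377 of them called and not all named here. Of 6358 values, 5506 kept direction and call, 800 kept direction without the call, 31 gained it and 21 turned direction, all 21 in genes that were not called to begin with. Of 1664 counts per list, 1338 stayed within 1.5 times. Under median-ratio scaling 2784 genes rose and 2776 fell over all tested genes, against 5218 and 1314 on the deposited scale, and 2519 and 2677 of the nuclear genes, with 104 list members higher and 258 lower, against 168 of each. Under quantile scaling 2652 rose and 2694 fell in all, and 2416 and 2585 of the nuclear genes. Scaled to nuclear coding FPKM, 7886 rose in all and 7543 of the nuclear genes. These scalings shift the median gene by construction.

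Leaving out 1 library at a time gave 3376 to 6826 changed genes in all (2415 to 5441 higher, 708 to 1385 lower) and 3068 to 6402 nuclear genes (2190 to 5116 higher, 632 to 1286 lower). List members higher numbered 100 to 176 and lower 107 to 178. Iron against copper deficiency gave 3612 to 6195 genes, and double against iron deficiency 21 to 221. The cause of these shifts was not tested. For nuclear genes a pseudocount of 0.1 gave 4907 higher and 1243 lower, a filter of 5 FPKM 4744 and 1232, no filter 3770 and 900, the 4 libraries alone 4344 and 1137, and a fit on nuclear genes alone, added after seeing the data, 5589 and 1500.

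With the replicate number as a block 4728 nuclear genes rose and 1280 fell, and double against iron deficiency called 133 genes. Deviations of same-numbered libraries correlated at -0.0394 between iron deficiency and control and at -0.0114 to 0.0238 elsewhere, so the numbers do not show a pairing.

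The genes that turned direction, none of them called, had these log2 changes. Under median-ratio scaling FIT had -0.0754, FER3 -0.15, NAS1 -0.0896, FRO7 -0.00932, PSBS -0.23, KU80 -0.16 and RNR1 -0.0792. Under quantile scaling FIT had -0.24, FER3 -0.22, AT1G18910 -0.00185, KU70 -0.0683, KU80 -0.27, RNR1 -0.14 and RCA 0.0191. Scaled to nuclear coding FPKM, ILR3 had 0.10 and GLK1 0.0547. With 1 library left out at a time GLK1 ran between -0.31 (without iron deficiency 2) and 0.0369 (without iron deficiency 1), FIT between -0.0378 (without iron deficiency 2) and 0.25 (without iron deficiency 1), FER3 between -0.17 (without iron deficiency 2) and 0.42 (without iron deficiency 1), with -0.0536 without control 2, and RNR1 between -0.14 (without control 2) and 0.54 (without control 1). The cause was not tested.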

Other observations

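Transport and use of nitrogen and sulfur differed gene by gene. Over all tested genes 27.2% rose and 6.85% fell. The shares that rose in the nitrogen, sulfur and flavonoid lists lay near that background, so these counts are no result about the lists. Of 14 tested nitrogen genes 4 rose and 3 fell, and 1 of these rises and all 3 falls were called under every scaling. NRT1.5, which loads nitrate into the xylem, had 37.2 and 36.4 FPKM in iron-deficient leaves, against 8.37 and 7.73 FPKM in control leaves (log2 change 2.06 ± 0.14, adjusted p = 3.06e-04), and NRT1.1, a nitrate importer and sensor, had 18.5 and 19.9 FPKM in iron-deficient leaves, against 31.5 and 37.4 FPKM in control leaves (log2 change -0.81 ± 0.12, adjusted p = 0.00443). ASN1, an asparagine synthetase, had 0.830 and 1.1 FPKM in iron-deficient leaves, against 7.22 and 6.22 FPKM in control leaves (log2 change -1.97 ± 0.27, adjusted p = 0.00377). Of 17 sulfur genes 5 rose and 2 fell, 1 of each under every scaling. LSU2, a protein of the response to low sulfur, had 109 and 107 FPKM in iron-deficient leaves, against 55.4 and 50.3 FPKM in control leaves (log2 change 1.02 ± 0.09, adjusted p = 7.02e-04), and OASA1, which makes cysteine in the cytosol, had 92.3 and 102 FPKM in iron-deficient leaves, against 323 and 325 FPKM in control leaves (log2 change -1.73 ± 0.08, adjusted p = 8.33e-05). Of 17 tested flavonoid genes 4 rose and 1 fell, and PAP1, an activator of anthocyanin synthesis, had 78.8 and 58.5 FPKM in iron-deficient leaves, against 29.2 and 20.8 FPKM in control leaves (log2 change 1.42 ± 0.22, adjusted p = 0.00490). Of 10 cold and drought genes 5 fell, 3 of them under every scaling, among them COR15B, which protects membranes in the cold, with 17.4 and 19.2 FPKM in iron-deficient leaves, against 41.7 and 37.0 FPKM in control leaves (log2 change -1.06 ± 0.18, adjusted p = 0.00670).

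Markers of other cell types and stages differed by set. The sets are small, and the background over all tested genes was 27.2% higher and 6.85% lower. The 6 guard cell markers, all tested, summed to 1405 and 1604 FPKM in iron-deficient leaves, against 1756 and 1614 FPKM in control leaves, and 2 rose and 1 fell, the fall under every scaling. The 6 epidermis and trichome markers summed to 294 and 306 FPKM in iron-deficient leaves, against 245 and 201 FPKM in control leaves, and of 5 tested 2 rose, though not under every scaling. The 8 phloem and xylem markers summed to 164 and 191 FPKM in iron-deficient leaves, against 159.7 and 152 FPKM in control leaves, and of 7 tested 2 rose and 1 fell, 1 of the rises under every scaling. The 10 flower markers summed to 49.4 and 58.0 FPKM in iron-deficient leaves, against 33.2 and 29.8 FPKM in control leaves. Of 8 tested flower genes 3 rose, 2 of them under every scaling, and of these FUL, a MADS-box factor of the floral transition, had 4.45 and 3.93 FPKM in iron-deficient leaves, against 1.02 and 0.446 FPKM in control leaves (log2 change 1.60 ± 0.22, adjusted p = 0.00353), while AP1 and LFY stood at 0.0782 FPKM or less in iron-deficient leaves and at 0.259 FPKM or less in control leaves. Of 5 seed markers SESA2 alone could be tested, with 4.00 and 3.12 FPKM in iron-deficient leaves, against 0.139 and 0.605 FPKM in control leaves (log2 change 1.75 ± 0.25, adjusted p = 0.00408), and the seed genes CRA1 and OLEO1 stood at 6.13 and 5.33 FPKM in control 2 and at 0.162 FPKM or less in the other 3 libraries. APL, a factor of phloem identity, had 18.2 and 18.2 FPKM in iron-deficient leaves, against 7.34 and 8.16 FPKM in control leaves (log2 change 1.14 ± 0.11, adjusted p = 0.00128), whereas the companion cell protein PP2-A1 had 42.4 and 52.4 FPKM in iron-deficient leaves, against 54.2 and 52.6 FPKM in control leaves and was not called (log2 change -0.18 ± 0.14, adjusted p = 0.364). The part of such cells in the changes described above was not tested.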
